A study of Mus musculus with 6 samples.

Results

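Chemokines and their receptors were read by 48 of the 12422 probe sets used, 29 for ligands and 19 for receptors. They stood for 43 of 8251 genes, namely 24 ligands and 19 receptors. The members were all probe sets with a single gene symbol of the Ccl, Cxcl, Cx3c, Xcl, Xcr, Ccr, Cxcr and Ackr series, so the rule uses names and no measured values. A probe set annotated to several Ccl21 genes lay outside that rule and was not used here. The cells were medullary thymic epithelial cells sorted as CD45-, G8.8+, CDR1int and B7.1hi, that is without the pan-leukocyte marker, positive for the epithelial antibody G8.8 and with strong staining for a costimulatory molecule. They came from wild-type mice and from mice in which both copies of Aire, the autoimmune regulator, were disrupted, and all animals were B6/129 F2 mice of both sexes, 3 to 5 weeks old. Each genotype had 3 arrays, and each array carried the RNA of 5 pooled thymi after 2 rounds of amplification with T7 polymerase, so 15 mice stand behind a group and the spread between single animals was not measured.

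Chemokines are small secreted proteins that bind receptors coupled to G proteins and direct the movement of cells. In the thymus they guide precursors from the blood, move thymocytes from cortex to medulla and place dendritic cells near the epithelium, and the medullary epithelium is itself a source of several of them. Atypical receptors, the Ackr series, bind chemokines without classical G protein signalling and are known for removing them or moving them across cells. The genotypes were compared to find transcripts in these cells whose levels differ when Aire is missing.

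Signals are in arbitrary units after quantile normalization, group values are geometric means over 3 arrays, and SDs are on the log2 scale. Values under 1.8 were raised to that floor, and 5.53 was taken as the limit of dim signals: a gene was tested where at least 3 of the 6 arrays lay above it. A signal shows how bright one probe set is and is not compared here between genes. The beta-actin signal of the 3' end over that of the 5' end was 95.8 on wild-type array 2 and 4.38 to 13.8 on the other 5 arrays. Aire's own probe set gave 59.9, 96.4 and 138 on the arrays labelled wild type and 202, 297 and 211 on those labelled Aire-deficient, that is more signal, without overlap, where the gene is disrupted (log2 difference 1.33 ± 0.35, adjusted p = 0.0873; blocked fit, 0.0182). The labels state neither which stretch was disrupted nor where on the transcript these probes bind, so the value does not check the labels, and in every comparison wild type and Aire-deficient mean the arrays so labelled. Epcam, the antigen of epithelial cells, gave 234, 251 and 130.5 in wild type and 102, 79.8 and 86.9 in Aire-deficient cells, lower without overlap like several ligands (log2 difference -1.14, adjusted p = 0.11; blocked fit, 0.0295), and its part in the ligand values was not tested. H2-Ab1, an MHC class II chain, was higher without overlap, from 653 to 1131 (adjusted p = 0.149, blocked fit 0.0485). The keratin genes Krt5 and Krt14 lay under the dim limit on all 6 arrays. Krt8 and Krt18, 2 brighter keratin genes, measured 275 and 355 (adjusted p = 0.574) and 85.2 and 175 (0.209, blocked fit 0.0499), both with overlap. Of the 13 tested markers of medullary epithelium 9 were higher in Aire-deficient cells and 4 lower, where 52.9% of all tested genes were higher. Among the 9, Tnfrsf11a lay under the dim limit on all 3 wild-type arrays, at 1.8, 2.98 and 4.97. It passed the filter through the Aire-deficient arrays alone (5.73, 9.88 and 6.02), so once tested it could only be higher. Ptprc, which encodes CD45, measured 5.15, 7.22 and 5.33 in wild type and 7.93, 7.83 and 10.3 in Aire-deficient cells (adjusted p = 0.558), and Cd3e, a chain of the T cell receptor complex, lay under the dim limit throughout.

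Most ligand transcripts that could be tested had lower means in the Aire-deficient cells. Only 1 passed the test as higher, a call that held in 10 of 17 alternative runs. Of 24 ligand genes 20 passed the filter on dim signals. Among those 20 the mean was lower in Aire-deficient cells for 18 and higher for 2, where 47.1% of all tested genes were lower. The median log2 difference of the 20 was -1.14, beside 0.05 over all 5950 tested genes. Over all 24 ligands, dim ones included, 21 means were lower and 3 higher, with a median of -1.02. These counts describe a family read on the same 6 arrays, and no test was made over them. In the limma fit Ccl25 rose and Cxcl1 fell at an adjusted p under 0.05, that is 1 ligand up and 1 down, against 0.387% of all tested genes higher and 1.33% lower. With the pool number as a block, Ccl5, Ccl9, Ccl17 and Ccl22 also passed, which made 5 ligands lower and 1 higher, where 3.7% and 2.59% of all tested genes passed. In such bulk RNA, fewer cells of a type and less RNA per cell cannot be told apart.

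**Figure D1:**
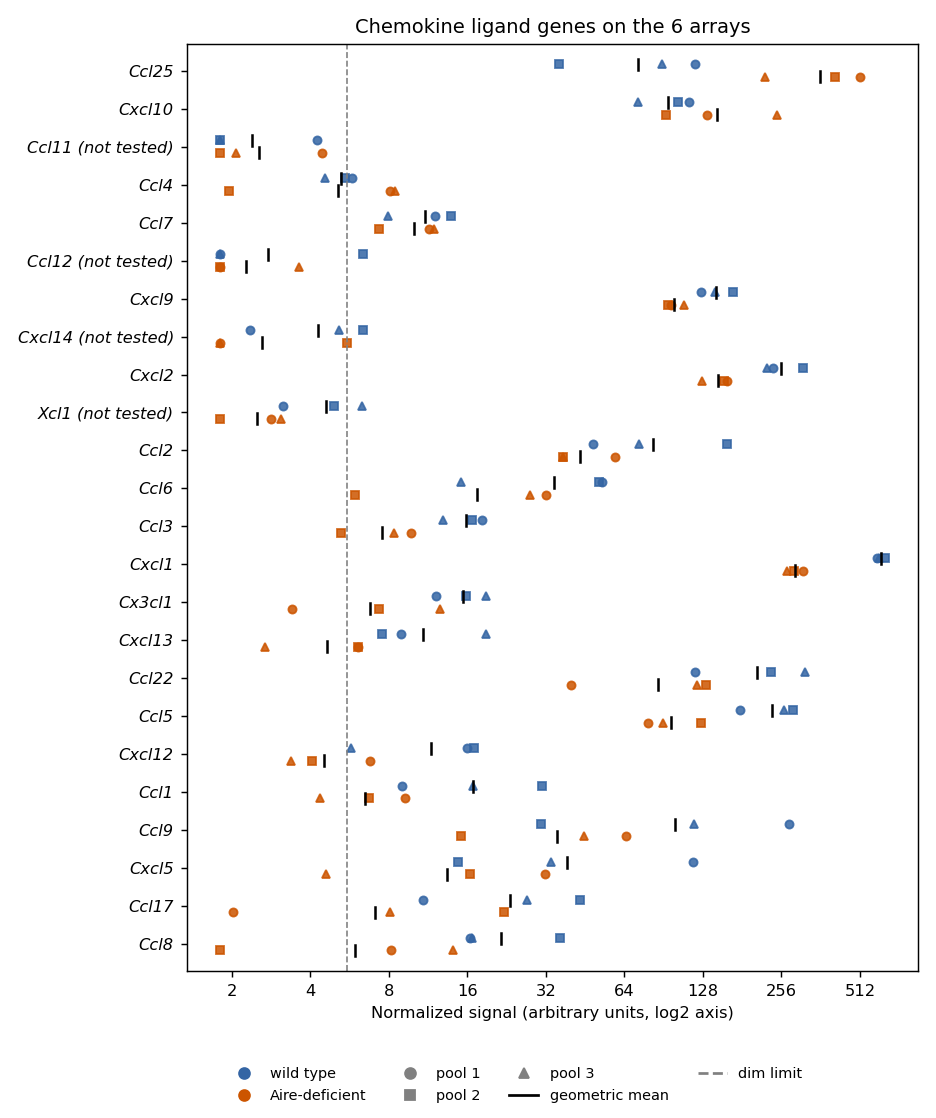
Normalized signal (arbitrary units, log2 axis) of the 24 ligand genes on each array, ordered by the log2 difference; blue marks are wild-type and orange marks Aire-deficient pools, the shape gives the pool number, short black lines are geometric means of 3 arrays and the dashed line is the dim limit of 5.53. The groups of Ccl25, the uppermost gene, do not overlap, and those of Cxcl1 lie apart with little spread; positions along the axis are not comparable between genes.

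**Figure D2:**
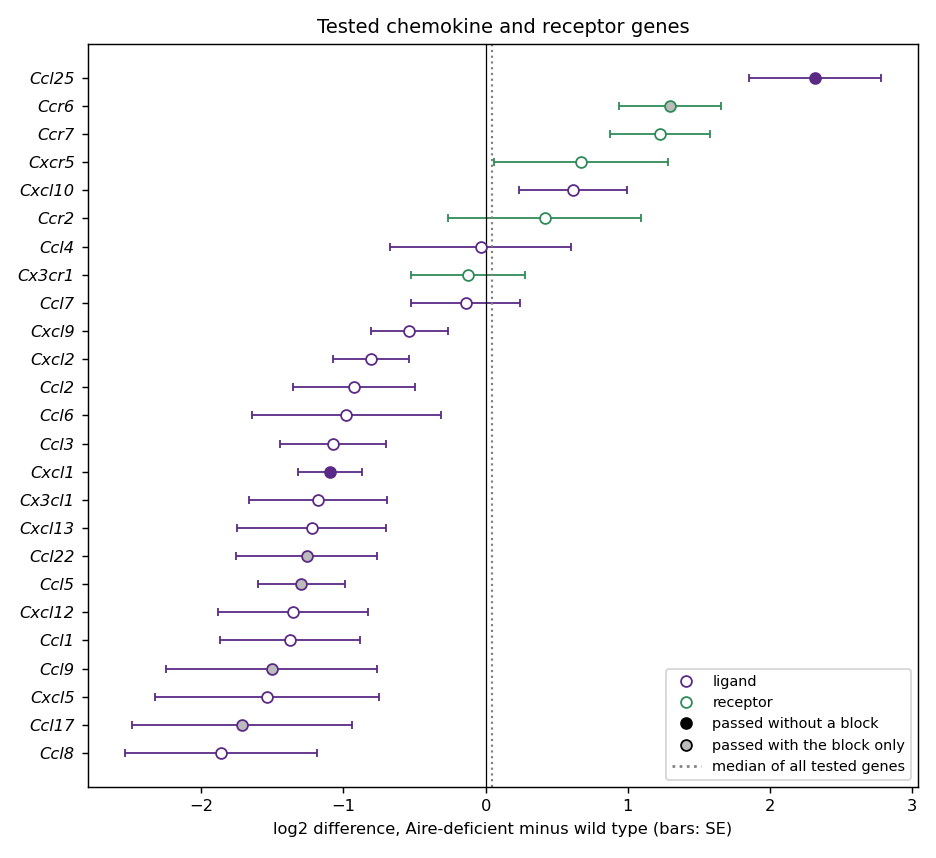
Log2 difference (Aire-deficient minus wild type) with its SE for the 25 tested members, ligands in purple and receptors in green, with filled circles where the adjusted p was under 0.05 without a block and grey ones where it was so only with the block; the dotted line is the median of all tested genes. Of the 20 ligands 18 lie below 0, and of the 5 receptors 4 lie above it.

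Ccl25, the ligand of Ccr9, which attracts thymocyte precursors, was the ligand that rose. The wild-type pools gave 119, 35.9 and 88.9, and the Aire-deficient pools 511, 413 and 222. Every Aire-deficient pool lay above every wild-type pool, and the lowest value was that of wild-type array 2. The mean rose from 72.4 (SD 0.90, n = 3) to 360 (SD 0.63, n = 3), a log2 difference of 2.31 ± 0.46 (SE; adjusted p = 0.0384, limma). In the same-number pairs the differences were 2.10, 3.52 and 1.32. The call was lost when 1 array was left out, except without Aire-deficient array 3 (adjusted p = 0.0466). Without wild-type array 2 the difference was 1.81 (adjusted p = 0.0973), and the adjusted p was 0.0526, 0.101, 0.0965 and 0.166 without wild-type array 1, wild-type array 3, Aire-deficient array 1 and Aire-deficient array 2. With that end ratio of beta-actin as a covariate the difference was 1.63 (adjusted p = 0.019). Dropping the variance trend (adjusted p = 0.0693) or the filter on dim genes (0.214) ended the call as well. Over the 6 arrays the tested genes most like Ccl25 in pattern, by Pearson correlation of log2 signals, were Lamtor5 (r = 0.993), H2-DMb1 (0.992), Ociad1 (0.991), Ifi35 (0.991) and Edem2 (0.989), a description that any gene higher on the same 3 arrays can share. None of these 5 passed the test (adjusted p of 0.125 to 0.329), and H2-DMb1 passed with the block (0.0453). Of the 6 tested markers of cortical epithelium (cTEC) 4 were higher in Aire-deficient cells and 2 lower, and none passed without the block. Kitl, at 16.06 and 41.15 (adjusted p = 0.0771, blocked fit 0.0218), and Cd83, at 27.7 and 57.9 (0.195, blocked fit 0.0381), passed with it. Foxn1, at 11.4 and 8.12 (0.702), and Ctsl, at 164.5 and 118.5 (0.767), were the lower ones. The part of cortical cells in the Ccl25 values was not tested.

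The neutrophil-attracting CXC ligands Cxcl1, Cxcl2 and Cxcl5 are neighbours on chromosome 5, with under 1 Mb between members. All 3 had lower means in the Aire-deficient cells. Cxcl1, a ligand of Cxcr2 and a classical target of NF-kappaB, gave 598, 640 and 605 in wild-type pools and 309, 285 and 270 in Aire-deficient pools. The groups lay apart and each was narrow. The mean fell from 614 (SD 0.05, n = 3) to 288 (SD 0.10, n = 3), a log2 difference of -1.09 ± 0.22 (SE; adjusted p = 0.0406, limma). The size and the call depended on the scaling: the difference was -0.68 on the values as deposited (adjusted p = 0.236) and -0.68 after median scaling (0.204), where the median of all tested genes moved from 0.05 to 0.18. The call was also lost without any 1 of the 6 arrays (adjusted p of 0.07 to 0.201), without a variance trend (0.112) and without a filter on dim genes (0.085). The second Cxcl1 probe set gave 523, 236 and 511 in wild type and 294, 176 and 178 in Aire-deficient cells. There the groups overlapped through wild-type array 2, and the probe set did not pass in a fit over all probe sets (adjusted p = 0.273). With the mean of both probe sets the difference was -1.01 (adjusted p = 0.0914).

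Cxcl2, a close relative that also binds Cxcr2, followed the same order without passing. It gave 238, 309 and 226 in wild type and 158, 155 and 127 in Aire-deficient cells, so the groups did not overlap (log2 difference -0.81 ± 0.27, adjusted p = 0.176; blocked fit, 0.0618). Cxcl5, the third ligand of the group, gave 117, 14.7 and 33.6 against 31.7, 16.3 and 4.59. Its groups overlapped, and wild-type array 1 alone was far above the other 5 arrays (adjusted p = 0.402). With the beta-actin end ratio as a covariate Cxcl5 passed, at -2.73 (adjusted p = 0.0237). Cxcr2, the receptor of all 3, was at or near the floor on the 6 arrays, with 1.88 on Aire-deficient array 3 as its highest value.

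Neutrophil transcripts moved in the same direction as these ligands. Of 10 neutrophil markers on the array 7 were tested and 6 fell, where 1.33% of all tested genes did: Ltf, Ly6g, Ngp, Camp, S100a8 and S100a9. Of these, Ltf, Ly6g and Ngp lay under the dim limit on all 3 Aire-deficient arrays. They passed the filter through wild type alone, so once tested they could only be lower. Ltf gave 34.87, 21.45 and 20.53 against 3.717, 1.8 and 1.8, and Ngp 17.25, 32.52 and 29.13 against 1.8, 2.067 and 5.017. The summed signal of the 10 markers was 296 to 835 in the wild-type pools and 75.5 to 104 in the Aire-deficient ones. Ly6g, a surface marker of granulocytes, measured 50.9, 12.8 and 28.9 in wild type and sat at the floor value, 1.8, in the 3 Aire-deficient pools. Mpo, a granule enzyme, measured 11.4 and 3.27 with overlap (adjusted p = 0.209). Of the other granule genes Elane and Ctsg lay under the dim limit on all 6 arrays, and Prtn3, too dim to be tested, went the other way without overlap, at 4.15, 3.78 and 2.27 against 7.62, 5.53 and 4.73. S100a8 and S100a9 are also made by epithelial cells, and the part of these transcripts in the ligand values was not tested. Cd14, a myeloid marker, measured 168, 207 and 92.2 against 68.3, 43.9 and 32.3, and passed with the block only (adjusted p = 0.0626, then 0.00595). Cd68, of the same macrophage and monocyte list, went the other way without overlap, at 7.93, 4.15 and 9.75 against 24.7, 20.8 and 19.2 (adjusted p = 0.0661; blocked fit, 0.0234), and of the 9 tested members of that list 5 were higher and 4 lower.

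**Figure D3:**
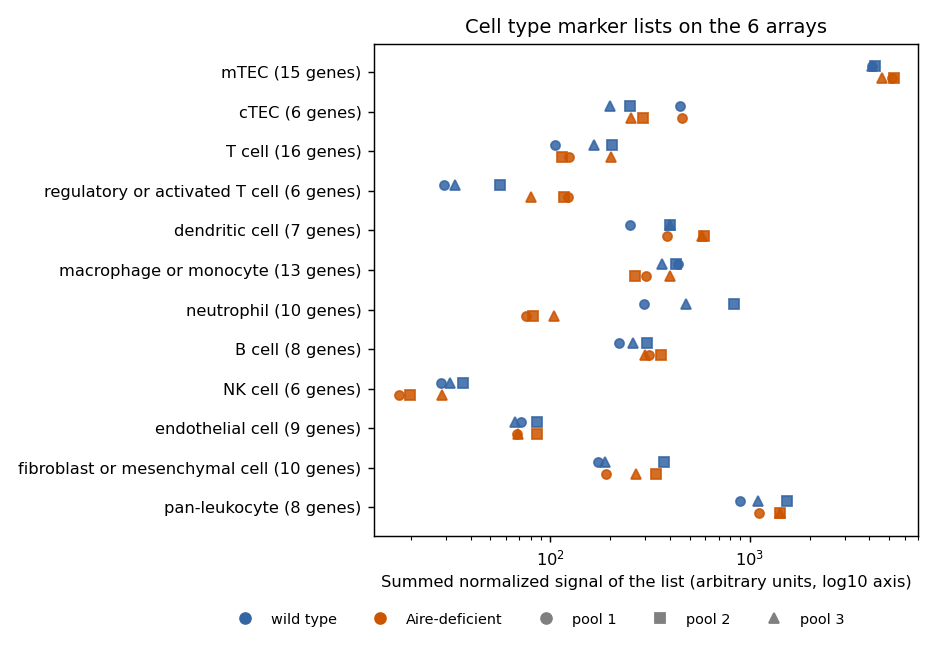
Summed normalized signal (arbitrary units, log10 axis) of each cell type marker list on the 6 arrays, with the number of listed genes on the array; blue marks are wild-type and orange marks Aire-deficient pools, and the shape gives the pool number. The neutrophil sums do not overlap between the groups, 296 to 835 against 75.5 to 104, and the sums of regulatory or activated T cell markers lie apart in the opposite order, 29.2 to 55.6 against 80.4 to 123, which overlap at 21.1 to 49.5 against 42.4 to 59.7 once Ctla4 is left out. The medullary epithelial (mTEC) sums, 4124 to 4267 against 4613 to 5292, overlap at 1306 to 1881 against 1353 to 1842 without the class II genes H2-Aa and H2-Ab1.

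The start regions of the ligands and receptors were read for 2 motifs in RefSeq's promoter table for GRCm38.p6, which held 37 windows of 300 bases (250 before and 50 after a start) for 35 of the 43 members. The NF-kappaB consensus, searched on both strands, stood in 9 of the 37 windows (24.3%), against 8.46% of all 32851 windows. The interferon-stimulated response element, also searched on both strands, stood in 2 of the 37, those of Cxcl10 and Cxcl14, against 3.44% of all windows. The windows with an NF-kappaB match belonged to Ackr2, Ccl1, Ccl9, Ccr1, Ccr3, Ccr6, Cxcl1, Cxcl2 and Cxcl10, a group that held transcripts lower, higher and too dim to test. A match is a run of letters and no measured binding site. Cxcl1 and Cxcl2 are shown because they are neighbours whose signals moved the same way and whose windows share the run GGGAATTTCCC, Cxcl10 and Ccr6 because they carry the consensus and had higher means in Aire-deficient cells, and Ccl25 because it rose. Capitals mark matches to either motif, and overlapping matches run together.

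Cxcl1 (chr5:90890995-90891294, + strand): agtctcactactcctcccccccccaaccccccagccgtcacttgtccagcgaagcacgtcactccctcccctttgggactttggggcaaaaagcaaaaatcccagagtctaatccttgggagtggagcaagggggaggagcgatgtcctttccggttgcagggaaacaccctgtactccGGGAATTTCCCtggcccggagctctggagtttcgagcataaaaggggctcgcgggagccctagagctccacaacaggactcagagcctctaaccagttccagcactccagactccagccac
Cxcl2 (chr5:90903649-90903948, + strand): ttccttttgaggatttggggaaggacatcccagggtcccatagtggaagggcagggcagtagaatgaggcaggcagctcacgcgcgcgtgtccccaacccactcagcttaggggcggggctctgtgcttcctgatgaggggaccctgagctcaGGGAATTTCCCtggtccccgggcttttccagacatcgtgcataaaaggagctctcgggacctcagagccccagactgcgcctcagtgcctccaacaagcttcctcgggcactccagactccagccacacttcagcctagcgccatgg
Cxcl10 (chr5:92348840-92349139, - strand): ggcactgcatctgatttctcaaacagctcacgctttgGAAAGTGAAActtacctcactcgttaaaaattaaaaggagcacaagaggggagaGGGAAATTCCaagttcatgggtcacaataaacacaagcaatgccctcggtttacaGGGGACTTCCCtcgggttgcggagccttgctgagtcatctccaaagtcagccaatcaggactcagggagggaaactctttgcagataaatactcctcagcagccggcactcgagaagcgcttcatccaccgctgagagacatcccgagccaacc
Ccr6 (chr17:8242276-8242575, + strand): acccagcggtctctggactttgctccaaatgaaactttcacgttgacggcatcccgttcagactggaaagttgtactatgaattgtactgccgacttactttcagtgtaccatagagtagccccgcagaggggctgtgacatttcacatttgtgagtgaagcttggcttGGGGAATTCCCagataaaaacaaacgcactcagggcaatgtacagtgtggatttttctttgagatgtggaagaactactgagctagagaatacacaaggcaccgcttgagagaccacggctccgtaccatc
Ccl25, first start (chr8:4324960-4325259, + strand): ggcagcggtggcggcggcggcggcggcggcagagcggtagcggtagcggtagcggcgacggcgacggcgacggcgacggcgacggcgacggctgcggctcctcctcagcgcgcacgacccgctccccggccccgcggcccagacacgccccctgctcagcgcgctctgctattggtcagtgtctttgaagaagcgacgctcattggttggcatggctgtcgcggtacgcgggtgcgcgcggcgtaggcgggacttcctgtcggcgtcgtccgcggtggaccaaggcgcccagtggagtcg
Ccl25, second start (chr8:4349338-4349637, + strand): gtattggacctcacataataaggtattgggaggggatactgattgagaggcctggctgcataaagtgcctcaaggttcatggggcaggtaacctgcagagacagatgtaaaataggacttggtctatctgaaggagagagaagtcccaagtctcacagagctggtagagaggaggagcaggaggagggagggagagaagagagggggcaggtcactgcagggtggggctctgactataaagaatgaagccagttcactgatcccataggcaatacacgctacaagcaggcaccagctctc

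The shared run of Cxcl1 and Cxcl2 begins 71 bases before the Cxcl1 start and 97 bases before the Cxcl2 start. Cxcl10 holds 1 match that begins 159 bases and a pair of overlapping ones that begin 104 and 103 bases before its start, besides the interferon-stimulated response element 213 bases before it. In Ccr6 overlapping matches begin 81 and 80 bases before the start shown, and the window of its other listed start held none. Neither Ccl25 window held a match to either motif.

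The interferon-induced ligands Cxcl9 and Cxcl10, which bind Cxcr3 and attract activated T cells, are also neighbours on chromosome 5, and their means pointed in opposite directions. Cxcl9 gave 126, 166 and 143 in wild type and 96.7, 93.8 and 108 in Aire-deficient cells. These groups did not overlap, with a log2 difference of -0.54 ± 0.27 (adjusted p = 0.386). Cxcl10 gave 113, 103 and 71.9 against 133, 92.5 and 245, and its groups overlapped (log2 difference 0.62 ± 0.38, adjusted p = 0.485). The Cxcl10 mean was higher in 2 of 3 same-number pairs, and Aire-deficient array 3 was the highest of the 6. Their receptor Cxcr3 was too dim to be tested, with 5.87 on wild-type array 1 as its highest value.

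Cxcl13, which draws B cells through Cxcr5, lies farther away on chromosome 5. It gave 8.92, 7.53 and 18.9 in wild type and 6.12, 6.12 and 2.68 in Aire-deficient cells, so the groups did not overlap, without passing (log2 difference -1.22 ± 0.52, adjusted p = 0.304). Cxcl12, the ligand of Cxcr4 that retains precursors in many tissues, was read by 3 probe sets that disagreed. The one that stood for the gene gave 15.9, 16.9 and 5.75 against 6.77, 4.07 and 3.38 (log2 difference -1.35 ± 0.53, adjusted p = 0.257). Another gave 12.7, 4.55 and 1.8 against 11.5, 4.45 and 1.8, almost the same values in both groups pair by pair, and the remaining one 6.82, 6.9 and 3.13 against 4.45, 7.66 and 2.47. Cxcl14, a chemokine of epithelia, was too dim to be tested and ranged from 1.8 to 6.38.

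On chromosome 11 the CC ligands form 2 groups of neighbours, in which no gap between members reached 1 Mb. In the group of Ccl2, Ccl7, Ccl11, Ccl12, Ccl8 and Ccl1, all 4 tested members had lower means in Aire-deficient cells, with a median log2 difference of -1.15 and a range of -1.86 to -0.14, and none passed with or without the block. Ccl2, a ligand of Ccr2 that recruits monocytes, gave 48.7, 158 and 72.7 against 58.9, 37.3 and 37.2, so its groups overlapped (adjusted p = 0.347). Ccl8, a relative that in the mouse binds Ccr8, gave 16.4, 36.2 and 16.7 against 8.16, 1.8 and 14.1. The Ccl8 groups did not overlap, but the Aire-deficient values spread from the floor to near the wild-type ones (log2 difference -1.86 ± 0.67, adjusted p = 0.222). Ccl1, another ligand of Ccr8, gave 9.02, 30.9 and 16.9 against 9.25, 6.72 and 4.35 on the probe set that stood for it, while its other probe set lay under the dim limit on all 6 arrays. Ccl7 differed by -0.14 ± 0.38 in log2 units (adjusted p = 0.903). The eosinophil attractant Ccl11 and the monocyte attractant Ccl12 were too dim to be tested, at 1.8 to 4.45 and 1.8 to 6.38.

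The other group on chromosome 11 holds Ccl5, Ccl9, Ccl6, Ccl3 and Ccl4, ligands of inflammatory CC receptors, and all 5 had means below those of wild type, with a median of -1.07 and a range of -1.50 to -0.03. Ccl5, an attractant of T cells and monocytes, gave 178, 284 and 261 in wild type and 79, 126 and 89.7 in Aire-deficient cells. The groups did not overlap, and the mean was 237 (SD 0.36, n = 3) against 96.3 (SD 0.35, n = 3), a log2 difference of -1.30 ± 0.31. It missed the threshold without the block (adjusted p = 0.0659) and passed with it (0.0102), and the 3 same-number pairs gave -1.17, -1.17 and -1.54. It also passed with array quality weights (0.0394) and with the floor raised to the 40th percentile (0.0473). Ccl9, a ligand of Ccr1 made by myeloid cells and by gut epithelium, gave 275, 30.7 and 119 against 64.9, 15.1 and 44.7. The groups overlapped because wild-type array 2 lay under Aire-deficient arrays 1 and 3, and the pools numbered 2 were the lowest of both groups. Each same-number pair was nevertheless lower in Aire-deficient cells, by -2.08, -1.02 and -1.41 (adjusted p = 0.371; blocked fit, 0.0116).

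Ccl3, an attractant of monocytes and other leukocytes, gave 18.3, 16.7 and 12.9 in wild type and 9.73, 5.23 and 8.37 in Aire-deficient cells, with no overlap (log2 difference -1.07 ± 0.37, adjusted p = 0.207). Its neighbour Ccl4 gave 5.78, 5.45 and 4.55 against 8.07, 1.95 and 8.48, with overlapping groups (log2 difference -0.03 ± 0.64). Ccl6, a further ligand of Ccr1, gave 52.4, 51.2 and 15.1 against 32.2, 5.93 and 27.8 (adjusted p = 0.53). The members of this group thus ranged from groups that lay apart, as for Ccl5 and Ccl3, to complete overlap, as for Ccl4.

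Ccl17, Ccl22 and Cx3cl1 are neighbours on chromosome 8, and all 3 were lower in Aire-deficient cells in each same-number pair. Ccl22, which with Ccl17 binds Ccr4 and brings medullary thymocytes to antigen-presenting cells, gave 119, 234 and 315 in wild type and 40.1, 132 and 122 in Aire-deficient cells. The groups overlapped, since wild-type array 1 lay under 2 of the Aire-deficient arrays, but within pairs the differences were -1.57, -0.83 and -1.37. Ccl22 did not pass without the block (log2 difference -1.26 ± 0.50, adjusted p = 0.261) and passed with it (0.0159). Ccl17 gave 10.8, 43.1 and 27.1 against 2.02, 22 and 8.1. It too overlapped between groups and differed in every pair, by -2.43, -0.97 and -1.74 (log2 difference -1.71 ± 0.78, adjusted p = 0.329; blocked fit, 0.0198). Cx3cl1, a membrane-bound chemokine of epithelium and endothelium, gave 12.2, 15.8 and 18.9 against 3.42, 7.32 and 12.5 (adjusted p = 0.276; blocked fit, 0.093). Its other probe set lay under the dim limit in wild type and gave 1.8, 5.93 and 10.4 in Aire-deficient cells, the opposite order. Ccl25 lies on the same chromosome but outside this group.

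Ccl17, Ccl22 and Ccl5 are also made by dendritic cells and T cells, so the markers of these cells stand beside them. The 7 dendritic cell markers summed to 252 to 400 in wild type and 387 to 588 in Aire-deficient cells, ranges that overlap and are mostly Irf8. None of the 6 tested members passed, although Batf3 and Irf8, factors of dendritic cell development, were higher and passed with the block (adjusted p = 0.0437 and 0.0486). Flt3, a cytokine receptor of the lineage, was lower without overlap, from 25.3 to 15.6 (adjusted p = 0.39), and the part of dendritic cells in the ligand values was not tested. The 16 T cell markers summed to 106 to 203 and 115 to 201, and none of 10 tested passed. Of the 4 tested markers of activated or regulatory T cells 3 were higher and 1 lower, and only Ctla4 passed. Ctla4, an inhibitory receptor, rose from 6.69 to 52.7 (adjusted p = 0.00668), and Il2ra, the lower one, measured 5.45 and 4.21 (0.807). Gzmb, a granule protease of cytotoxic and NK cells, fell from 12.5 to 2.11 (adjusted p = 0.035), with every Aire-deficient value under the dim limit. Gzmb thus passed the filter through wild type alone and could only be lower. The other tested NK cell marker, Gzma, measured 5.15 and 5.71 (adjusted p = 0.929), and 4 more were too dim to be tested. The macrophage and monocyte sums were 364 to 438 and 266 to 401.

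Across all tested ligands, 12 of 20 were lower in each of the 3 same-number pairs and 1 was higher, against 20.8% and 22.4% of all tested genes. With 7 ligands lower and 1 higher without any overlap between the groups, 10.7% and 10.6% of all tested genes were so. By a difference of at least 1 in log2 units as well, 5 ligands were lower and 1 higher, against 5.6% and 3.97% of all tested genes. The 5 were Ccl3, Ccl5, Ccl8, Cxcl1 and Cxcl13. The median of the tested ligands was -1.05 without wild-type array 2, and with the term for 3' to 5' signal it was -0.93, with 16 ligands lower and 4 higher.

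**Figure D4:**
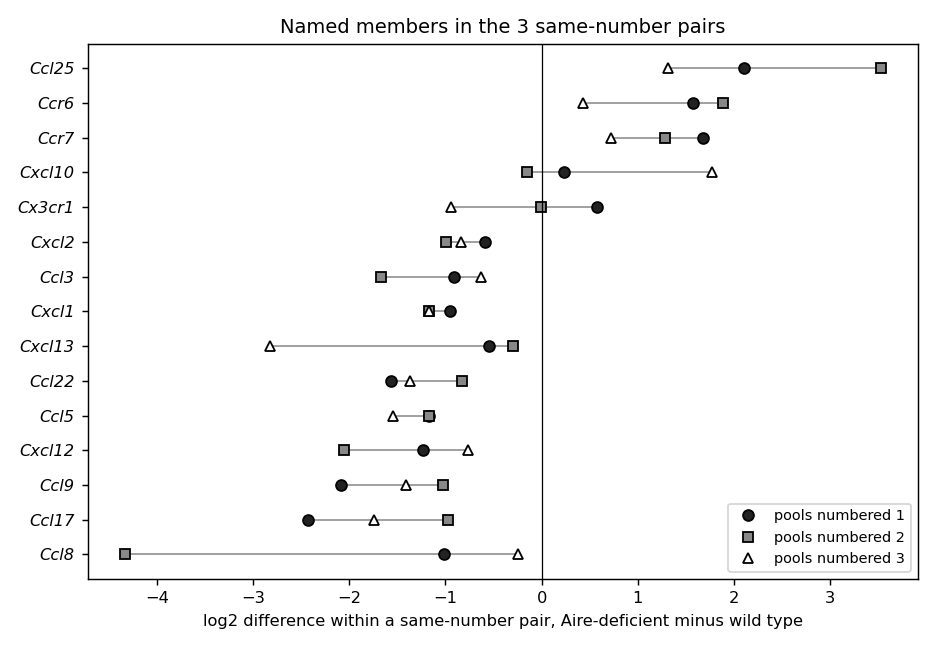
Log2 difference (Aire-deficient minus wild type) within each pair of pools of the same number, for the 15 members whose values are given in full by rule; the shapes are the pools numbered 1 to 3 and the grey line spans them. Ccl5, Cxcl1 and Ccl22 kept to narrow ranges below 0, Ccl8 spread from -4.33 to -0.24, and Ccl25, Ccr6 and Ccr7 lay above 0 in all 3 pairs.

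Receptors were mostly too dim to read. Of 19 receptor genes 5 passed the filter, Ccr2, Ccr6, Ccr7, Cxcr5 and Cx3cr1, and 6 of the rest lay under the dim limit on all 6 arrays. Of the 5, 4 had higher means in Aire-deficient cells and 1 a lower one, where 52.9% of all tested genes were higher, with a median log2 difference of 0.67 (0.42 to 1.17 when 1 array was left out). Over all 19, dim ones included, 13 means were higher, 5 lower and Ccr8 was at the floor on every array. No receptor passed the limma fit in either direction, with 2 higher and 0 lower at an unadjusted p under 0.05, against 6.82% and 8.32% of all tested genes. With the block 1 passed, Ccr6.

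Ccr6, the receptor of Ccl20 on B cells, T cell subsets and dendritic cells, gave 44.6, 55.9 and 96.9 in wild type and 133, 207 and 131 in Aire-deficient cells. The groups did not overlap, and the mean was 62.3 (SD 0.58, n = 3) against 153 (SD 0.37, n = 3). The log2 difference of 1.30 ± 0.36 had an adjusted p of 0.107 without the block and 0.0297 with it, and the pairs gave 1.57, 1.88 and 0.43. Its ligand Ccl20 was not among the members.

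Ccr7, which leads thymocytes and mature dendritic cells to sources of Ccl19 and Ccl21, gave 5.43, 7.22 and 8.3 in wild type and 17.3, 17.6 and 13.7 in Aire-deficient cells. Every Aire-deficient pool lay above every wild-type pool, with a log2 difference of 1.22 ± 0.35 that did not pass (adjusted p = 0.121; blocked fit, 0.0682). Fscn1, a gene of mature dendritic cells, measured 77.1 and 73 (log2 difference -0.08, adjusted p = 0.946). The pan-leukocyte markers summed to 899 to 1541 in wild type and 1114 to 1419 in Aire-deficient cells, ranges that overlap and are largely Laptm5. Laptm5 gave 647.5, 1042 and 705 against 553.9, 746.6 and 868, and of the 8 tested pan-leukocyte markers 6 were higher and 2 lower. None passed without the block, and Cd52, which was higher, passed with it (adjusted p = 0.0499). The B cell markers summed to 220 to 305 and 299 to 360. Pax5, the factor of B cell identity, gave 7.93, 1.8 and 1.8 against 17.5, 10.2 and 13 (adjusted p = 0.121; blocked fit, 0.0306). Of the 6 tested B cell markers 5 were higher and 1 lower, and the lower one, Ms4a1, the surface antigen CD20, measured 14.1 and 9.37 (adjusted p = 0.548). Ighm and Blnk differed by 0.13 and 0.10 in log2 units. The part of such cells in the receptor values was not tested.

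The 3 other tested receptors overlapped between the groups. Cxcr5, the receptor of Cxcl13, gave 14.4, 6.18 and 4.85 against 4.77, 21.1 and 17.2 (log2 difference 0.67 ± 0.61, adjusted p = 0.656), lower in the first pair and higher in the other 2. Ccr2, the receptor of Ccl2, gave 12.7, 1.8 and 4.97 against 7.5, 6.43 and 5.58 (adjusted p = 0.828). Cx3cr1, the receptor of Cx3cl1, gave 9.25, 15.5 and 13.9 against 13.8, 15.4 and 7.2 (log2 difference -0.13 ± 0.40, adjusted p = 0.913).

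Among the receptors under the filter were those of the ligands that moved most. Ccr9, the receptor of Ccl25, gave 1.8, 1.8 and 3.02 in wild type and 1.8, 5.93 and 2.88 in Aire-deficient cells. Ccr4, the receptor of Ccl17 and Ccl22, stayed between 1.8 and 3.6 on all 6 arrays. Cxcr4, the receptor of Cxcl12, gave 2.55, 3.25 and 3.53 against the floor on all 3 Aire-deficient arrays, all under the dim limit, so no fold is given. Among the atypical receptors Ackr2, which takes up inflammatory CC chemokines, gave 1.98, 2.8 and 2.15 against 4.35, 6.98 and 10.7. Its groups did not overlap, and only 2 of the 6 arrays lay above the dim limit, too few for a test. Ackr1 gave 1.8, 7.83 and 10.6 against 2.7, 2.87 and 2.08, and Ackr3 and Ackr4 ranged from 1.8 to 5.68 and from 1.8 to 6.42. Ccr1, Ccr1l1, Ccr3 and Xcr1 were untested too, within 1.8 to 9.1. The ligand Xcl1, which attracts dendritic cells bearing Xcr1, gave 3.13, 4.92 and 6.32 against 2.83, 1.8 and 3.08, without overlap but above the dim limit on 1 array.

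**Figure D5:**
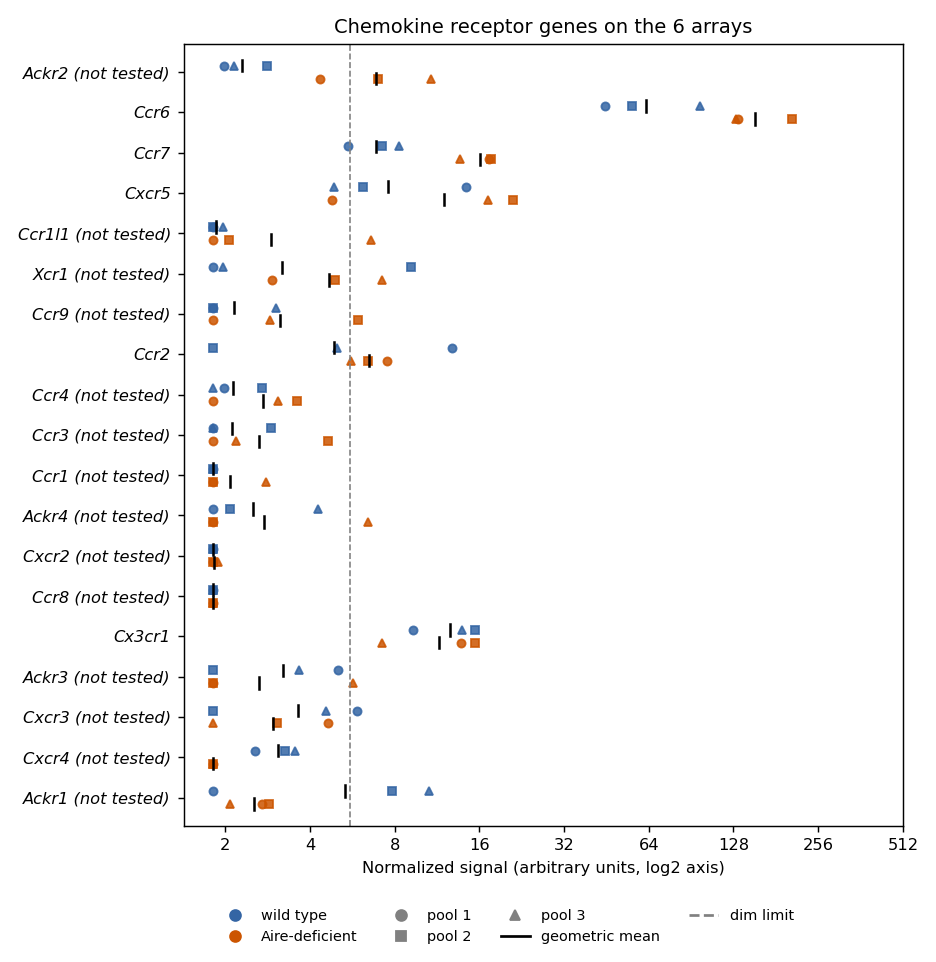
Normalized signal (arbitrary units, log2 axis) of the 19 receptor genes on each array, ordered by the log2 difference; blue marks are wild-type and orange marks Aire-deficient pools, the shape gives the pool number, short black lines are geometric means of 3 arrays and the dashed line is the dim limit of 5.53. Most receptors lie left of that limit. Ccr6 lies right of it, as does Ccr7 except on wild-type array 1 (5.43), and the groups of neither gene overlap. Positions along the axis are not comparable between genes.

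The genes that act behind chemokine receptors did not pass the fit. Of 29 genes of receptor signalling on the array 24 were tested, with a median log2 difference of 0.15, and none passed without the block. Grk5, a kinase that desensitizes receptors, gave 30.5, 31.7 and 18.9 against 75.6, 59.9 and 51.4, with no overlap (adjusted p = 0.0994; blocked fit, 0.0238). Rac2, a GTPase of leukocyte migration, measured 149 and 269 (adjusted p = 0.222), and Rassf5, an effector of integrin activation, 35.6 and 18.9 (0.222). Of the RGS proteins, which shorten G protein signals, 7 were tested and none passed, and Rgs16 measured 42.9 and 25.3 without overlap (adjusted p = 0.362), Rgs2 63.1 and 31.3 (0.414) and Rgs3 25.1 and 32.8 (0.624).

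Relatives that the naming rule left out and genes that process or hold chemokines gave no call either. Ccrl2, an atypical relative of the CC receptors, gave 25.4, 20.9 and 29.9 against 15.3, 13.2 and 15.7, with no overlap (adjusted p = 0.26), and Pf4, a CXC ligand of platelets, lay under the dim limit on all 6 arrays. The proteoglycan Sdc1, which binds chemokines at cell surfaces, measured 25.7 and 11.4 (adjusted p = 0.265). The matrix proteases Mmp12, at 23.2 and 9.87 (0.329), and Mmp9, at 27.7 and 12.9 (0.329), were likewise below their wild-type means without passing. Of the 9 tested genes that process or hold chemokines, however, 5 were higher and 4 lower. Among the 4 tested relatives 3 were higher and only Ccrl2 was lower. The higher ones included Cmtm6, at 31.4 and 58.1 (adjusted p = 0.309), and Cmtm7, at 27.95 and 38.15 (0.574), both with overlap. In the 4 pathway lists together 1 of 44 tested genes passed with the block, Grk5, where 2.59% of all tested genes passed higher and 3.7% lower.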

How the data were processed

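The authors deposited linear signal intensity per probe set for 6 arrays of 3 wild-type and 3 Aire-deficient pools, with scanner software and scaling not stated in any source used. Per the labels, RNA was amplified in 2 rounds, which favours 3' ends. Of 12488 probe sets 66 controls were left out. The platform annotation gave 10833 probe sets 1 gene, 396 several and 1193 none, and the last 2 kinds were not named. All 43 members matched RefSeq (GRCm38.p6) by Entrez identifier, which served for names, neighbours (under 1 Mb between members) and promoters. Arrays were quantile normalized, floored at the pooled 20th percentile (1.8) and log2 transformed. The probe set with the highest mean stood for a gene, and a gene was tested if 3 or more of its 6 signals exceeded the 40th percentile of all signals (5.53).

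The 2 genotypes entered a linear model in limma 3.58.1, under R 4.3.3 (variance trend, 2-sided, Benjamini-Hochberg over 5950 genes, threshold 0.05), in a procedure tested on simulated data. Where the text gives an adjusted p, it is from this fit. P-values measure the spread between pools. Same-number arrays deviated together (correlations 0.38, 0.21 and 0.19; others -0.26 to 0.08), so pairing by number was accepted, although the labels do not say what they stand for, and values with the number as a block are given where they change a call. The deviations were taken from the mean of each group, so these correlations are tied to each other. The block was also chosen from the same arrays that the blocked fit tests. Members and lists were chosen with earlier results of these data known. Values in full are given for members that passed with or without the block, those at least 1 log2 unit apart without overlap, the 5 ligands and 3 receptors with the highest mean signal, and well-known thymic chemokines; other members, by counts, ranges or values. From the pathway lists, called genes and up to 3 per list with the smallest p are named, and Pf4 was added. The alternatives changed the scaling, floor, filter, variance trend, array weights and probe set rule, added the block or a 3' bias term, or left out 1 array. Marker sums without Ctla4 or the class II genes, and the marker genes named singly, were chosen after seeing the data. Figures used matplotlib 3.10.9 in Python 3.11.15.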

Additional observations from a re-analysis of the deposited data

How the results depend on the processing

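The ligands kept a lower median in every alternative run. Of the 23 genes called higher and 79 lower over the whole array, the values as deposited gave 63 higher, median scaling 57, a floor at the 40th percentile 46, no filter on dim genes 4 higher and 12 lower, no variance trend 11 higher, and array quality weights 67 higher and 139 lower. Leaving out 1 array gave 0 to 8 higher and 0 to 51 lower, with no call without wild-type array 3, where limma gave 451 higher and 381 lower at an unadjusted p under 0.05. Deposited values gave a median over all genes of 0.18, median scaling 0.18 and no filter 0.0135. With the replicate block, 154 genes were higher and 220 lower, with 5 ligands lower and 1 receptor higher.

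Ligands called higher numbered 0 without a filter and 0 without a variance trend (1 at an unadjusted p under 0.05 in each), and 0 to 1 when an array was left out. Ligands called lower numbered 0 on the values as deposited, after median scaling, without a filter, without a variance trend and with the mean over probe sets (6 to 10 at an unadjusted p under 0.05 in limma), and 2 under each of array weights, the 3' bias term and the raised floor. They numbered 0 without any 1 array (6 to 11 unadjusted). Ligands above 0 numbered 4 with the 3' bias term and 2 to 4 when an array was left out.

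Receptors below 0 numbered 2 with a floor at the 40th percentile, 2 with the 3' bias term, 5 without a filter (13 above 0) and 0 to 1 when an array was left out. Their median was 0.32 without a filter, 1.17 with array weights and 0.42 to 1.17 when an array was left out. Leaving out wild-type array 2, or Aire-deficient array 3, turned the sign of Cx3cr1, within -0.35 to 0.21. The cause was not tested. Signal near the dim limit restricts what can be read for most receptors.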
